A study of Mus musculus with 160 samples.

Results

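Mitosis and spindle genes are 45 mouse genes whose products start, run and end cell division. They were chosen by gene symbol, and each symbol matched 1 gene, so that all 45 were found among the 46078 genes of the count table. RNA was sequenced from sorted cells of the aorta-gonad-mesonephros (AGM) region, where blood stem cells arise in the mouse embryo, to ask how cells that express *Gata3* differ from cells of the same type that do not. Endothelial cells (ECs) and haematopoietic cells (HCs) came from E10.5 embryos, and mesenchymal cells (MCs) and cells of the sympathetic nervous system (SNS) from E11.5 embryos. Each cell type was split into a *Gata3*-GFP+ and a *Gata3*-GFP- fraction, which gave 8 populations with 20 pools of 20 cells each. Libraries were made by Smart-seq2, which amplifies full-length cDNA from few cells, with ERCC spike-in RNAs added.

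All embryos carried the *Gata3*-GFP knock-in on 1 allele, so every group, GFP- groups included, was heterozygous for *Gata3*. ECs were gated as Cdh5+ CD41- CD45-, HCs by CD41 and CD45 (CD41+ CD45+ in the design text, CD41/45+ in the paper, which leaves unsaid whether both were required), MCs as Pdgfrb+ and SNS cells as Ngfr+. Cells of several embryos were pooled before sorting, and the labels do not tie a pool to its replicate. Of 160 pools, 7 were outside the study's limits on read number and read shares and were left out, which left 19 GFP+ and 20 GFP- EC pools, 20 and 20 HC pools, 20 and 17 MC pools, and 18 and 19 SNS pools. Passing pools held 1400824 to 16004756 counts on genes, with a median of 3801233. Median depth was lowest in GFP- ECs (2801409 counts) and highest in GFP+ SNS cells (4573354 counts). Reads on no gene had a median of 15.4% in GFP+ ECs (13.2% to 20.4%) and 12.6% in GFP- ECs (9.29% to 14.9%), and mitochondrial reads of 7.54% and 6.40%. The part of these in the EC results was not tested.

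Cells enter mitosis when cyclin-bound Cdk1 is switched on by Cdc25 phosphatases. Condensins and topoisomerase then compact the chromosomes, kinetochores tie them to spindle microtubules, and the spindle checkpoint holds the anaphase-promoting complex (APC/C) back until every chromosome is attached. Most of these genes are transcribed in G2 and M phase under the DREAM and MuvB complexes, which act through promoter elements of the CHR type, often beside CCAAT boxes bound by NF-Y, so that their RNA marks dividing cells, and in the AGM the cells around blood formation differ in how often they divide.

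Expression is given below as CPM, counts scaled to library size with TMM factors, and 3 values in a row are the lowest, the median and the highest over the pools of a population. *Gata3* was read at 28.5, 77.9 and 174 CPM in GFP+ ECs and 4.37, 10.45 and 29.6 CPM in GFP- ECs. In HCs it was 12.7, 45.04 and 148.7 CPM in GFP+ pools and 1.78, 7.02 and 12.9 CPM in GFP- pools. Both contrasts went with the sort, with 18 of 19 GFP+ EC pools above the highest GFP- pool (log2 fold change 2.66 in ECs and 2.89 in HCs). The endothelial markers *Cdh5*, *Pecam1*, *Kdr*, *Tek*, *Emcn*, *Tie1* and *Esam* led in all EC pools.

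At E11.5, 12 of 74 pools went against their labels, and 1 GFP+ HC pool did too. In these 13 pools the marker list of the labelled gate had fewer counts than the list of another gate, and they are the last 3 columns of each E11.5 population and the last GFP+ HC column. The 3 pools labelled GFP+ MC had 237 to 374 CPM on 7 mesenchymal markers, against 2692 to 4064 CPM in the other 17, and 867 to 1255 CPM on 8 sympathetic and neural crest markers, against 6.80 to 36.6 CPM. In the 3 pools labelled GFP- MC the mesenchymal sum was 33.4 to 93.8 CPM, the neural sum 1822 to 3362 CPM and *Gata3* 122.6 to 395 CPM, where the other 14 had 2.52 to 19.02 CPM of *Gata3*. Pools labelled GFP+ SNS showed the reverse, with 18.98 to 40.9 CPM on neural and 2082 to 2387 CPM on mesenchymal markers and 9.96 to 24.3 CPM of *Gata3* in 3 pools. The 3 pools labelled GFP- SNS had 3137 to 4045 CPM on mesenchymal markers. In the 1 pool labelled GFP+ HC the neural sum was 1290.3 CPM, against 1.13 to 599.5 CPM in the other 19, and the haematopoietic sum 1007 CPM, against 1090.2 to 2061 CPM, so that it held markers of both gates. *Gata3* did not pass the test in MCs with all passing pools (log2 fold change -0.66, edgeR adjusted p 0.496) and was called higher without the 13 (1.88), while in SNS cells it was 1.85 and 2.10. No pool was moved to another group. Counts of called members and most log2 fold changes in MCs and SNS cells are therefore given with all passing pools and without the 13. Without them 17, 14, 15 and 16 pools were left for GFP+ MCs, GFP- MCs, GFP+ SNS cells and GFP- SNS cells. CPM values and pool counts of single members include the 13 unless stated otherwise.

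**Figure D1:**
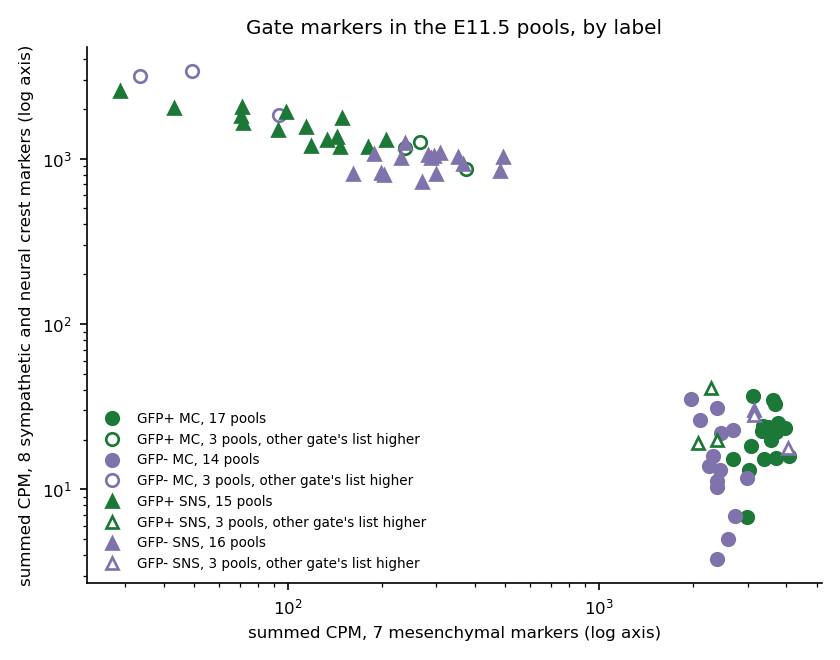
Summed CPM of the mesenchymal markers (x, log scale) and of the sympathetic and neural crest markers (y, log scale) in each passing E11.5 pool, with open symbols for pools in which the list of the labelled gate did not lead. The 12 open symbols lie among the pools of the other gate or between the groups.

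Summed over the 45 members, the level in a pool was 756, 2630.0 and 5226 CPM in GFP+ ECs and 3190, 4984 and 7676 CPM in GFP- ECs. Of 19 GFP+ EC pools, 12 lay under the lowest GFP- pool, and the highest GFP+ pool exceeded the lowest 6.92-fold. In HCs the sum was 2707, 3990.3 and 7508 CPM in GFP+ pools and 3405, 5120.0 and 7785 CPM in GFP- pools, which overlapped over most of their range, with 5 of 20 GFP+ pools under the lowest GFP- pool. In MCs it was 872, 2990.4 and 5194 CPM in GFP+ pools and 2604, 4365 and 7358 CPM in GFP- pools. Without the 13 pools the MC medians were 2837 and 5229 CPM, and 13 of 17 GFP+ pools, in place of 8 of 20, were under the lowest GFP- pool. SNS cells had the opposite order, 2925, 4711 and 7351 CPM in GFP+ pools and 2097, 3615 and 5858 CPM in GFP- pools, with medians of 4659 and 3923 CPM without the 13. In these bulk pools fewer dividing cells and less RNA of these genes in each cell cannot be told apart.

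**Figure D2:**
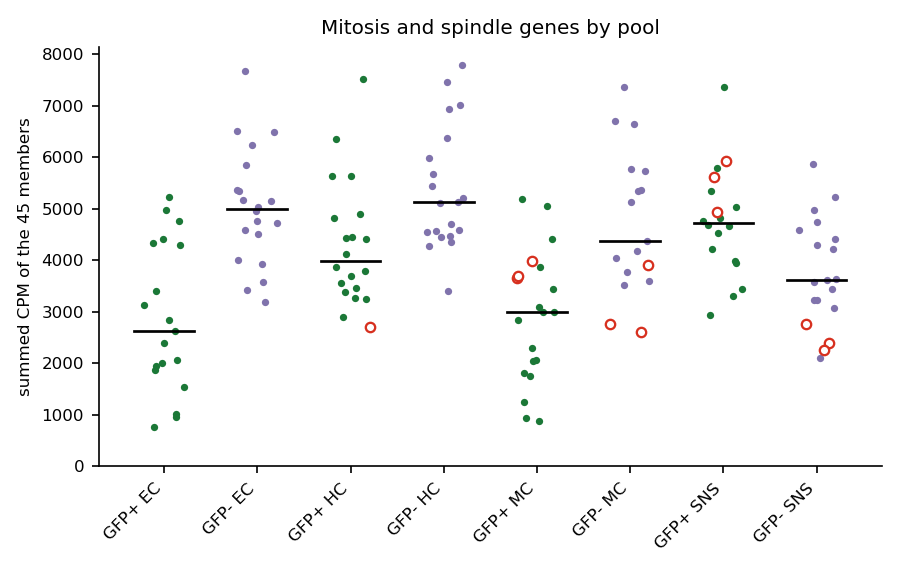
Summed CPM of the 45 members in each passing pool of the 8 populations, with GFP+ pools in green, GFP- pools in purple, a bar at the median of all passing pools, and red open circles for the 13 pools that went against their labels. Relative to their level GFP+ EC and GFP+ MC pools spread widest, with the highest pool 6.92-fold and 5.95-fold above the lowest.

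Most members were read in every pool. The median pool had 44 members with at least 10 counts in GFP+ ECs and 45 in the other populations, and the poorest GFP+ EC and GFP+ MC pools had 30 and 35. Counts of 0 were rare: *Cdc25b* in 1 GFP+ and 2 GFP- EC pools, *Cdc25c*, *Tpx2* and *Hmmr* in 1 GFP+ EC pool each, and *Cdc25c*, *Bub1b* and *Espl1* in 1 GFP+ MC pool each. Levels of different genes were compared as median CPM per kb of exon. On that scale *Ccnb2* or *Ube2c* came first in all 8 populations, with 131.5 CPM per kb for *Ccnb2* in GFP- ECs and 63.2 CPM per kb for *Ube2c* in GFP+ ECs. Of its exon bases *Ube2c* shares 22.8% with *Tnnc2* on the other strand. *Cdk1* was among the first 5 everywhere. *Espl1*, which encodes the protease separase that cuts cohesin, was last in 6 populations, for example at 1.32 CPM per kb in GFP+ ECs, and *Cdc25b* was last in GFP- ECs (1.55 CPM per kb) and GFP- HCs (2.34 CPM per kb). In GFP+ SNS cells alone *Bub3* stood among the first 4, with 63.6 CPM per kb.

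The comparison of GFP+ with GFP- pools asked, for each cell type, which genes go with *Gata3* expression. A gene was called when its edgeR adjusted p was under 0.01 and its log2 fold change, GFP+ relative to GFP-, lay beyond 0.1 in either direction, and all 45 members were tested in every comparison. In ECs 18 members were called lower and 0 higher, where of all 15073 genes tested 16.5% were lower and 19.5% higher. The median log2 fold change was -0.71 over the members and 0.10 over all genes, and 43 members were below 0. Called higher were 0 members by DESeq2 and by scanpy too, and at an unadjusted p under 0.05 there were 32 lower and 0 higher. Here and below, no share of all genes is given for counts by DESeq2, by scanpy or at an unadjusted p. These counts therefore cannot be weighed against such a share. In HCs 9 members were called lower and 0 higher, beside 9.53% and 17.1% of 16200 genes. The medians were -0.29 over the members and 0.05 over all genes. At an unadjusted p under 0.05, 19 members were lower and 2 higher in HCs, and DESeq2 called 1 member higher and scanpy 0. The 9 calls in HCs were 9 without the pool that went against its label. Fewer members were lower in HCs with ERCC scaling and in 1 fit of the 8 populations, and more by scanpy. Each of these counts moved by over 1.5 times.

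In MCs 5 members were called lower and 0 higher with all passing pools, beside 2.15% and 2.21% of 16026 genes. All 45 members were below 0, with a median of -0.72 and a median of -0.01 over all genes. Without the 13 pools 15 members were called lower and 0 higher, beside 4.90% and 5.52% of 15226 genes, and the median over the members was -0.93. For MCs edgeR had 39 lower and 0 higher members at an unadjusted p under 0.05 (43 and 0 without the 13), and DESeq2 and scanpy called 0 higher. In SNS cells 0 members were called lower and 3 higher, beside 1.85% and 2.01% of 16143 genes. The SNS median was 0.31 over the members and 0.00 over all genes. Without the 13 pools 0 were lower and 3 higher, beside 5.48% and 4.94% of 15658 genes. The 3 of 45 members higher are then a share near that of all genes. The member median was 0.17 without the 13, with 11 members below 0 in place of 1. For SNS cells 0 members were lower and 20 higher at an unadjusted p under 0.05 in edgeR (0 and 6 without the 13), and DESeq2 and scanpy each called 0 lower and 3 higher.

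**Figure D3:**
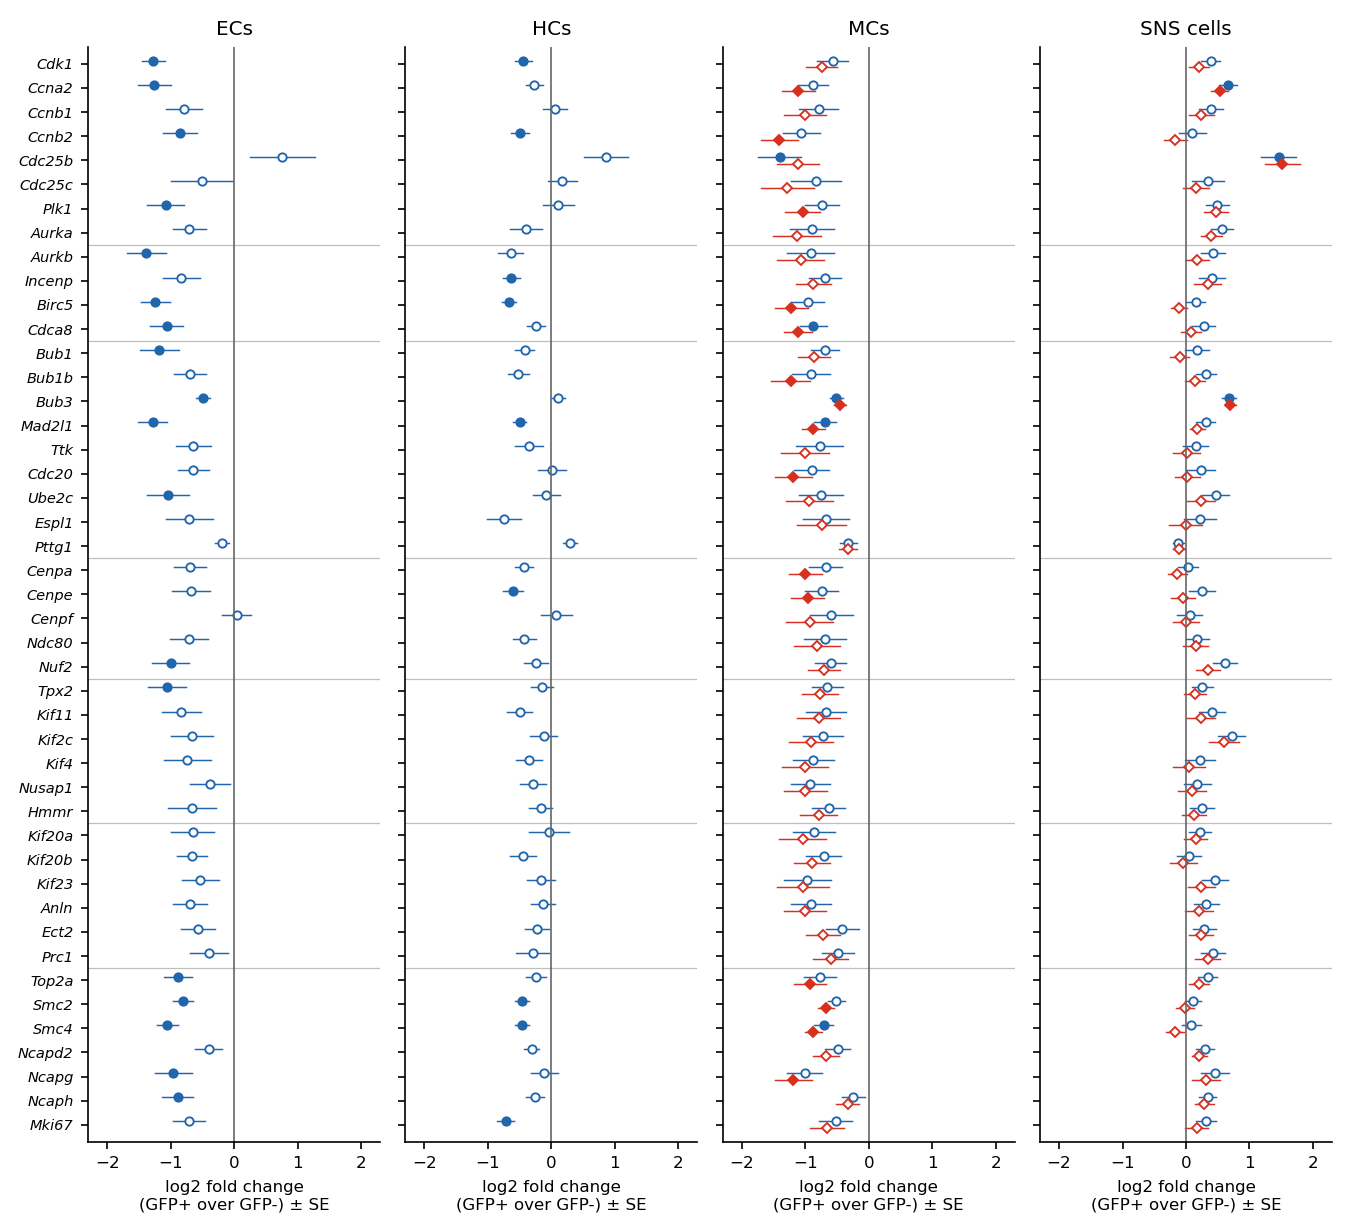
Log2 fold change of each member, GFP+ relative to GFP-, in the 4 cell types, with bars of 1 standard error, blue circles for all passing pools, red diamonds (MCs and SNS cells) without the 13 pools, filled symbols for called members and grey lines between role groups. Points lie left of 0 in ECs, HCs and MCs for most members and right of 0 in SNS cells.

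Marker lists of cell types differed between the fractions too, with calls on the sympathetic and neural crest list left out here. In GFP+ ECs 6 of 7 endothelial markers were called higher and 1 lower (median sums 5486 CPM in GFP+ and 3612 CPM in GFP- pools, most abundant *Cdh5* and *Emcn*). Of 7 mesenchymal markers 6 were higher in GFP+ ECs (55.2 and 12.8 CPM, led by *Col3a1*, with *Pdgfrb* and *Twist1* at a median of 0 in GFP- pools), and of 6 haematopoietic markers 3 were higher (240.2 and 69.1 CPM, led by *Laptm5*). In GFP+ HCs 4 of 6 macrophage and myeloid markers were called lower (1761 and 3914 CPM, led by *Lyz2*), as were 4 of 6 haematopoietic markers, with 1 higher (1381 and 2082 CPM, led by *Laptm5*). Without the HC pool that went against its label, 3 markers of each of these lists were lower. Higher in GFP+ HCs were 6 of 7 endothelial markers (181 and 59.7 CPM), 7 of 7 mesenchymal markers (267 and 34.05 CPM) and the 4 urogenital epithelium markers tested (43.6 and 3.30 CPM). The median sums of the sympathetic and neural crest markers were 37.3 CPM in GFP+ HCs and 4.39 CPM in GFP- HCs. Without the pool that went against its label the GFP+ HC median was 19.6 CPM. In GFP+ SNS cells, without the 13 pools, 6 of 7 mesenchymal markers (114.3 and 285 CPM) and 3 urogenital epithelium markers (2.38 and 84.9 CPM) were lower. In GFP+ MCs, without the 13, 3 of 7 mesenchymal markers were higher and 1 lower (3479 and 2398 CPM). With all passing pools edgeR called no mesenchymal marker in SNS cells or MCs, and 2 urogenital epithelium markers were lower in GFP+ SNS cells. Their part in the members' changes was not tested.

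The kinases, cyclins and Cdc25 phosphatases that start mitosis were 8 members, of which 4 were called lower in ECs, 2 in HCs and 1 in MCs (3 without the 13 pools), and 2 higher in SNS cells. Beside this and the other role groups, the shares of all genes called lower were 16.5% in ECs, 9.53% in HCs and 2.15% in MCs (4.90% without the 13), and 2.01% were higher in SNS cells (4.94%). *Cdk1* encodes the kinase that drives entry into mitosis. It was read at 53, 177 and 383 CPM in GFP+ ECs and 246, 449.9 and 606 CPM in GFP- ECs. In 13 of 19 GFP+ EC pools it was under the lowest GFP- pool, and all 19 were under the GFP- median (log2 fold change -1.27 ± 0.18, edgeR adjusted p 1.97e-07). HC pools had 90.2, 221 and 383 CPM in GFP+ HCs and 172, 289 and 538 CPM in GFP- HCs, so the groups overlapped and 16 of 20 GFP+ pools were under the GFP- median (log2 fold change -0.44 ± 0.14, edgeR adjusted p 0.00802). In MCs *Cdk1* was 49.8, 169 and 397 CPM in GFP+ MCs and 61.8, 236 and 496 CPM in GFP- MCs, and in SNS cells 79.4, 247 and 422 CPM in GFP+ SNS cells and 74, 193 and 302 CPM in GFP- SNS cells. Neither was called: the log2 fold change in MCs was -0.57 with all passing pools and -0.74 without the 13, and in SNS cells 0.39 with all passing pools and 0.21 without the 13.

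*Ccna2*, the cyclin A that partners the kinase in S phase and G2, shares 12.5% of its exon bases with *Exosc9* on the other strand. It had 8.24, 52.2 and 137.4 CPM in GFP+ ECs and 93.5, 145.5 and 251 CPM in GFP- ECs, with 14 of 19 GFP+ pools under the lowest GFP- pool (log2 fold change -1.26 ± 0.26, edgeR adjusted p 7.16e-05). HC levels were 68.6, 149.1 and 256 CPM in GFP+ HCs and 122.8, 182 and 247 CPM in GFP- HCs, without a call (-0.27 ± 0.13). In MCs *Ccna2* was 8.56, 68.6 and 165 CPM in GFP+ MCs and 64.4, 147.3 and 240.1 CPM in GFP- MCs, where 19 of 20 GFP+ pools were under the GFP- median. Its log2 fold change there was -0.88 with all passing pools and -1.11 without the 13, and only the second was called. SNS cells had 108.97, 179 and 251 CPM in GFP+ SNS cells and 51.9, 116.3 and 177 CPM in GFP- SNS cells, with 17 of 18 GFP+ pools above the GFP- median and 9 above the highest GFP- pool. It rose there (log2 fold change 0.66 ± 0.14, edgeR adjusted p 0.00141) and was called without the 13 as well (0.53).

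*Ccnb1*, a cyclin B that turns Cdk1 on for mitosis, was 2.68, 40.3 and 125.8 CPM in GFP+ ECs and 58.7, 86.1 and 194 CPM in GFP- ECs. HC pools held 53.4, 102.8 and 261 CPM in GFP+ HCs and 66.8, 99.7 and 187 CPM in GFP- HCs. The lowest EC pools were all GFP+, 11 of 19 being under the lowest GFP- pool, yet no contrast of *Ccnb1* was called (log2 fold change -0.79 ± 0.28 in ECs and 0.05 ± 0.19 in HCs). MC pools read 6.37, 64.4 and 175 CPM in GFP+ MCs and 76.8, 98.3 and 263 CPM in GFP- MCs, and SNS pools 66.3, 134.4 and 257 CPM in GFP+ SNS cells and 37.7, 93.8 and 214 CPM in GFP- SNS cells. The MC difference was -0.79 with all passing pools and -1.0 without the 13, the SNS difference 0.40 with all passing pools and 0.24 without the 13. *Ccnb2*, the other B-type cyclin, had 13.3, 95.2 and 327 CPM in GFP+ ECs and 114.5, 201 and 346 CPM in GFP- ECs (log2 fold change -0.85 ± 0.27, edgeR adjusted p 0.00920). In HCs it was 95.4, 187 and 349 CPM in GFP+ HCs and 157.6, 256 and 443 CPM in GFP- HCs (log2 fold change -0.49 ± 0.14, edgeR adjusted p 0.00377). Both contrasts had GFP+ pools under every GFP- pool, 11 of 19 in ECs and 6 of 20 in HCs. In MCs without the 13 pools *Ccnb2* was 4.39, 77.5 and 159.9 CPM in GFP+ MCs and 124.1, 198 and 274 CPM in GFP- MCs, and 14 of 17 GFP+ pools were under the lowest GFP- pool. With all passing pools the MC values were 4.39, 78.4 and 179.9 CPM in GFP+ MCs and 61.7, 172 and 274 CPM in GFP- MCs, and of the MC differences, -1.06 with all passing pools and -1.41 without the 13, only the latter was called. SNS pools read 73.1, 142.02 and 321 CPM in GFP+ SNS cells and 24.3, 144.2 and 264 CPM in GFP- SNS cells (0.10 with all passing pools and -0.17 without the 13, called in neither).

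*Cdc25b*, the phosphatase that removes the inhibiting phosphates of Cdk1, had log2 fold changes above 0 at E10.5, where most members were below 0. It was low at E10.5, with 0, 11.6 and 36.9 CPM in GFP+ ECs and 0, 5.77 and 18.1 CPM in GFP- ECs. In HCs it had 2.34, 17 and 51.7 CPM in GFP+ HCs and 1.53, 8.73 and 25.4 CPM in GFP- HCs. Here GFP+ pools tended to be the higher ones, 15 of 20 HC pools being above the GFP- median, but neither contrast was called (0.76 ± 0.51 in ECs and 0.86 ± 0.34 in HCs). MC pools had 2.90, 13 and 25 CPM in GFP+ MCs and 5.24, 22.4 and 108.8 CPM in GFP- MCs, the highest values being those of pools labelled GFP- MC that went against their label. It fell in MCs with all passing pools (log2 fold change -1.40 ± 0.34, edgeR adjusted p 0.00584) and was not called without the 13, at -1.11, where the medians were 9.58 and 18.5 CPM. In SNS cells it was 12.7, 35 and 76.7 CPM in GFP+ SNS cells and 4.22, 12.3 and 50.2 CPM in GFP- SNS cells. All 18 GFP+ SNS pools were above the GFP- median and 5 above the highest GFP- pool, the largest rise of a member in any GFP contrast (log2 fold change 1.46 ± 0.28, edgeR adjusted p 0.000741), and it was 1.52 and called without the 13.

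*Plk1*, the kinase that matures centrosomes and spindle poles, was 3.49, 33.4 and 112.7 CPM in GFP+ ECs and 40.1, 78.7 and 149.6 CPM in GFP- ECs (log2 fold change -1.08 ± 0.29, edgeR adjusted p 0.00231). In HCs *Plk1* was 22.2, 68.3 and 179.8 CPM in GFP+ HCs and 16.7, 72 and 143.6 CPM in GFP- HCs and was not called (0.11 ± 0.24). GFP+ EC pools thus reached down below every GFP- EC pool in 10 of 19 cases, while HC pools mixed. MC pools had 9.69, 48.8 and 131.9 CPM in GFP+ MCs and 41.6, 91.9 and 173 CPM in GFP- MCs, and the difference, -0.74 with all passing pools and -1.04 without the 13, was called only in the latter. SNS pools had 60.6, 91.7 and 176 CPM in GFP+ SNS cells and 30.4, 71.1 and 175 CPM in GFP- SNS cells (0.49 ± 0.18, not called). *Aurka*, the spindle pole kinase, and *Cdc25c* were called in none of the GFP contrasts.

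Promoter sequences are shown for 5 members to let the shared letters be seen beside the changes: *Cdk1*, *Ccnb2*, *Cdc25b* and *Bub3*, which carry them, and *Birc5*, which does not. The letters searched were TTTGAA or TTCGAA, written TTCAAA or TTCGAA on the other strand, the core of the CHR element, and CCAAT, written ATTGG on the other strand. RefSeq windows of GRCm38.p6, from 250 bases before to 50 bases after each start, were available for 38 members with 41 windows. TTTGAA or TTCGAA was found in 33 of 41 windows (80.5%), against 19.2% of all 32851 windows. CCAAT was found in 31 of 41 (75.6%), against 37.4%, and both kinds in 29 of 41 (70.7%), against 7.52%. In 1 window of a member a base belonged to both kinds. A match is a description, not a site or a cause. No TTTGAA or TTCGAA was in the windows of *Birc5*, *Ccnb1*, *Cenpe*, *Mad2l1*, *Ncaph*, *Nuf2*, *Nusap1* and *Pttg1*, which says only that these letters are not in that stretch. No window was in the table for *Ccna2*, *Cdc25c*, *Aurkb*, *Incenp*, *Tpx2*, *Kif20a* and *Smc4*.
The sequences run 5′ to 3′ along the gene's strand, with the letters found in capitals. The windows are chr10:69352863-69353162, minus strand for *Cdk1*, chr9:70421505-70421804, minus strand for *Ccnb2*, chr2:131186698-131186997, plus strand for *Cdc25b*, chr7:131560120-131560419, plus strand for *Bub3* and chr11:117848987-117849286, plus strand for *Birc5*.
Cdk1: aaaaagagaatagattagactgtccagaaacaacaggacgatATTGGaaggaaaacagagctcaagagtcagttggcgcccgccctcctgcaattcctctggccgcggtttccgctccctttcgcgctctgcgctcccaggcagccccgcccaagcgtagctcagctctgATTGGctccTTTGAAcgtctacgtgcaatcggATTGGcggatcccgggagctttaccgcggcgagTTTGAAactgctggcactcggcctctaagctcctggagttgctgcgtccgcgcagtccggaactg
Ccnb2: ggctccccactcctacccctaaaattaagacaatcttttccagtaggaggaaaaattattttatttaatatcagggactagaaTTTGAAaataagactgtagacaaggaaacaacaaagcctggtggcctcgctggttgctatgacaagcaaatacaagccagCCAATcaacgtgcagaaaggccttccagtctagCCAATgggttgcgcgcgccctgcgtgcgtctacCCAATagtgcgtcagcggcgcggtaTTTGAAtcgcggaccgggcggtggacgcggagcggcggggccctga
Cdc25b: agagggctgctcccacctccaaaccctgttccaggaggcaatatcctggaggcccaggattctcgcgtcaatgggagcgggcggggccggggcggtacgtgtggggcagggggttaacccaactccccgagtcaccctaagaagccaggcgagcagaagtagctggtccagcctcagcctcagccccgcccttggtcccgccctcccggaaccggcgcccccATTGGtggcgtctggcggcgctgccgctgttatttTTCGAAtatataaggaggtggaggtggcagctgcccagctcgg
Bub3: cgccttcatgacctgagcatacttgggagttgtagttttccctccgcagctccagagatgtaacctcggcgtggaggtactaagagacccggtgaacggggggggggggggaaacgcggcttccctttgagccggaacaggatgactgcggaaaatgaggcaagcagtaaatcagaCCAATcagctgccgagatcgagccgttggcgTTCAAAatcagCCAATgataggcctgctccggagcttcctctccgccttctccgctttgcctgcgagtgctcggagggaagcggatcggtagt
Birc5: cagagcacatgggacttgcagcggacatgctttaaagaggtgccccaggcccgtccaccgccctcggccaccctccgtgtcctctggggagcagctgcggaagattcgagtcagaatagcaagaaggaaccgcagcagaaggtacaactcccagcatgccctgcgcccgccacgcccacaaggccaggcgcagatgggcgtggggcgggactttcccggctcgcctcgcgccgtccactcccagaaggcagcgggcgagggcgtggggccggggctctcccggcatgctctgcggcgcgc
*Cdk1* and *Ccnb2* each hold 2 copies of the CHR letters and 3 of CCAAT. In *Cdc25b* the CCAAT match begins at -28 and the CHR match at 7, counted from the start as 0, and in *Bub3* 1 CHR match at -43 lies between CCAAT matches at -74 and -32. A further *Bub3* window, chr7:131560244-131560543, overlaps the one shown and holds 1 CHR and 2 CCAAT matches. Matches and direction of change were not compared over the members, and 5 chosen genes cannot show whether they go together. *Cdk1* and *Ccnb2*, with both kinds, and *Birc5*, with neither, were called lower in ECs and HCs. *Bub3* was called lower in ECs and MCs and higher in SNS cells, and *Cdc25b* lower in MCs and higher in SNS cells. The *Cdc25b* call in MCs was lost without the 13 pools that went against their labels.

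The chromosomal passenger complex corrects faulty attachments at the centromere and then marks the midzone, and 3 of its 4 members were called lower in ECs, 2 in HCs and 1 in MCs (2 without the 13 pools). *Aurkb*, its kinase, had 1.34, 21.4 and 73.8 CPM in GFP+ ECs and 28.2, 65 and 106.8 CPM in GFP- ECs. It showed the largest fall in ECs (log2 fold change -1.38 ± 0.30, edgeR adjusted p 0.000181), with 12 of 19 GFP+ pools under the lowest GFP- pool. In HCs *Aurkb* was 19.7, 60.4 and 126.6 CPM in GFP+ HCs and 31.5, 98.6 and 158.01 CPM in GFP- HCs and missed the threshold (log2 fold change -0.64 ± 0.20, edgeR adjusted p 0.0110). In MCs it was 2.41, 39.2 and 130.97 CPM in GFP+ MCs and 3.89, 80.4 and 143.1 CPM in GFP- MCs, and in SNS cells 35.6, 75.2 and 115.7 CPM in GFP+ SNS cells and 16.1, 61.3 and 95.6 CPM in GFP- SNS cells. Neither was called, at -0.91 with all passing pools and -1.07 without the 13 in MCs and 0.43 with all passing pools and 0.18 without the 13 in SNS cells. Without the 13, 12 of 17 GFP+ MC pools, in place of 3 of 20, had less *Aurkb* than every GFP- pool. *Birc5* encodes survivin, which brings the complex to the centromere. Its levels were 13.3, 152.1 and 347 CPM in GFP+ ECs and 171, 326 and 527 CPM in GFP- ECs (log2 fold change -1.24 ± 0.23, edgeR adjusted p 1.35e-05). In HCs they were 126.1, 254 and 393 CPM in GFP+ HCs and 258, 401 and 589.9 CPM in GFP- HCs (log2 fold change -0.67 ± 0.11, edgeR adjusted p 1.08e-05). All 20 GFP+ HC pools were under the GFP- median and 10 under the lowest GFP- pool. *Birc5* in MCs was 7.25, 121.4 and 271 CPM in GFP+ MCs and 79.2, 263 and 378 CPM in GFP- MCs, and in SNS cells 105.3, 163 and 331 CPM in GFP+ SNS cells and 83.6, 171 and 322 CPM in GFP- SNS cells. The MC difference was -0.96 with all passing pools and -1.22 without the 13, called only in the latter, and the SNS difference turned from 0.15 to -0.11 without the 13, called in neither.

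*Incenp*, the scaffold that activates Aurora B, had 2.15, 28.5 and 65.5 CPM in GFP+ ECs and 18.1, 46.2 and 106.2 CPM in GFP- ECs and was not called (-0.83 ± 0.29). In HCs it was 33.4, 54.4 and 88 CPM in GFP+ HCs and 40.4, 85.6 and 146.8 CPM in GFP- HCs, with 19 of 20 GFP+ pools under the GFP- median (log2 fold change -0.63 ± 0.13, edgeR adjusted p 0.000125). In MCs *Incenp* was 3.58, 25.5 and 53.4 CPM in GFP+ MCs and 16, 42.5 and 70.4 CPM in GFP- MCs, and in SNS cells 20.5, 39.5 and 91 CPM in GFP+ SNS cells and 8.43, 30.3 and 58.5 CPM in GFP- SNS cells. With all passing pools the ranges overlapped in both, and neither was called (-0.69 with all passing pools and -0.87 without the 13 in MCs). Without the 13, 12 of 17 GFP+ MC pools, in place of 5 of 20, had less *Incenp* than every GFP- pool. *Cdca8*, which encodes borealin and binds survivin, was 9.07, 61.8 and 157.5 CPM in GFP+ ECs and 64, 135.9 and 249 CPM in GFP- ECs (log2 fold change -1.06 ± 0.26, edgeR adjusted p 0.000630). HC pools had 62.6, 160.2 and 268 CPM in GFP+ HCs and 124.4, 178 and 292 CPM in GFP- HCs (-0.24 ± 0.14, not called). In MCs *Cdca8* was 17.3, 65 and 124.6 CPM in GFP+ MCs and 65, 129.4 and 189 CPM in GFP- MCs. All 20 GFP+ MC pools were under the GFP- median and 10 under the lowest GFP- pool (log2 fold change -0.87 ± 0.21, edgeR adjusted p 0.00609), and without the 13 it was -1.11 and called. SNS pools had 73.1, 131.3 and 240.3 CPM in GFP+ SNS cells and 38.4, 111.5 and 182 CPM in GFP- SNS cells (0.28 ± 0.18, not called).

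Genes of the spindle checkpoint and of anaphase were 9 members, of which 4 were called lower in ECs (*Bub1*, *Bub3*, *Mad2l1* and *Ube2c*), 1 in HCs and 2 in MCs (4 without the 13 pools), and 1 higher in SNS cells. The 1 of 9 in HCs is a share near the 9.53% of all genes called lower there. *Bub3* carries the checkpoint kinases to kinetochores and varied least between pools in 5 of 8 populations. It was 80.2, 185 and 279 CPM in GFP+ ECs and 163, 256 and 363 CPM in GFP- ECs (log2 fold change -0.49 ± 0.11, edgeR adjusted p 0.000422), a small but steady shift, with 17 of 19 GFP+ pools under the GFP- median. In HCs *Bub3* was 164, 229 and 419 CPM in GFP+ HCs and 148.3, 220.0 and 339 CPM in GFP- HCs, and the ranges overlapped (0.11 ± 0.11). In MCs *Bub3* was 130.7, 211 and 313 CPM in GFP+ MCs and 209, 313 and 425 CPM in GFP- MCs, with 10 of 20 GFP+ pools under the lowest GFP- pool (log2 fold change -0.51 ± 0.10, edgeR adjusted p 0.000428). It was called in MCs without the 13 too, at -0.45. In SNS cells it was 209.5, 446 and 620.0 CPM in GFP+ SNS cells and 164, 264 and 362 CPM in GFP- SNS cells, and 13 of 18 GFP+ pools stood above every GFP- pool (log2 fold change 0.67 ± 0.11, edgeR adjusted p 5.77e-05). Once the 13 pools were left out, the SNS ranges nearly parted, with 326, 456 and 620.0 CPM in GFP+ SNS cells and 169, 289 and 362 CPM in GFP- SNS cells, 13 of 15 GFP+ pools above every GFP- pool and a called log2 fold change of 0.70.

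*Mad2l1* encodes Mad2, which blocks the APC/C activator Cdc20, and it was 1 of 2 members called lower in ECs, HCs and MCs alike. It had 9.73, 48.8 and 117.6 CPM in GFP+ ECs and 34.8, 106.6 and 159.8 CPM in GFP- ECs (log2 fold change -1.28 ± 0.23, edgeR adjusted p 1.15e-05). In HCs it had 41.2, 89.8 and 149.8 CPM in GFP+ HCs and 88.9, 130.6 and 176 CPM in GFP- HCs (log2 fold change -0.50 ± 0.10, edgeR adjusted p 0.000170). Almost every GFP+ pool was under the GFP- median, 18 of 19 in ECs and 18 of 20 in HCs. In MCs *Mad2l1* was 23, 63.1 and 100.1 CPM in GFP+ MCs and 53.6, 89.9 and 154.2 CPM in GFP- MCs (log2 fold change -0.69 ± 0.17, edgeR adjusted p 0.00808), and -0.87 and called without the 13. SNS pools had 65.5, 107.6 and 161.1 CPM in GFP+ SNS cells and 26.3, 90.5 and 158.2 CPM in GFP- SNS cells (0.31 ± 0.15, not called). *Cdc20* itself was 21, 87.7 and 236 CPM in GFP+ ECs and 57.9, 144.1 and 310.0 CPM in GFP- ECs, and 31.9, 141.1 and 280.2 CPM in GFP+ HCs and 48.3, 132.03 and 230.0 CPM in GFP- HCs. The HC pools could not be told apart (0.01 ± 0.22), and in ECs it was not called (-0.64 ± 0.25). In MCs *Cdc20* was 10.1, 65.2 and 193 CPM in GFP+ MCs and 60.3, 135.4 and 288 CPM in GFP- MCs, and in SNS cells 73.6, 154.95 and 264 CPM in GFP+ SNS cells and 20.5, 114.6 and 275 CPM in GFP- SNS cells. The MC difference was -0.90 with all passing pools and -1.19 without the 13 and was called only in the latter, with 16 of 17 GFP+ pools under the GFP- median.

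Among the GFP contrasts *Bub1b*, the checkpoint protein BubR1, was called only in MCs without the 13 pools. There it was 0, 33 and 99.2 CPM in GFP+ MCs and 39.7, 82 and 146.7 CPM in GFP- MCs. Its log2 fold change was -1.23 (-0.91 with all passing pools). Elsewhere *Bub1b* was 3.22, 29.6 and 91 CPM in GFP+ ECs and 24.2, 62.6 and 85.3 CPM in GFP- ECs, and 21.7, 58.9 and 92.7 CPM in GFP+ HCs and 28.2, 87.7 and 122.8 CPM in GFP- HCs. SNS pools had 49.1, 66.3 and 98.7 CPM in GFP+ SNS cells and 24.2, 49.9 and 101.3 CPM in GFP- SNS cells. With all passing pools its MC values were 0, 41.2 and 99.2 CPM in GFP+ MCs and 29.1, 72.8 and 146.7 CPM in GFP- MCs. The group spanned -1.28 to -0.19 in ECs, -0.75 to 0.29 in HCs, -0.91 to -0.32 in MCs and -0.12 to 0.67 in SNS cells. *Pttg1*, which encodes securin, the inhibitor of separase, was the member nearest 0 in ECs among these (-0.19 ± 0.11). *Ttk*, *Espl1* and *Pttg1* were called in no GFP contrast, although *Pttg1* was above the GFP- median in 19 of 20 GFP+ HC pools.

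Of 5 centromere and kinetochore members, 1 was called lower in ECs (*Nuf2*, -1.0), 1 in HCs (*Cenpe*, -0.61) and 0 in MCs (2 without the 13 pools, *Cenpa* and *Cenpe*), where 1 of 5 is a share near the 16.5% of all genes in ECs. *Cenpa*, the histone H3 variant of centromeres, was 8.96, 196 and 339 CPM in GFP+ ECs and 134.2, 239.5 and 483 CPM in GFP- ECs. In HCs it was 81.8, 198 and 333 CPM in GFP+ HCs and 140.2, 247 and 429.9 CPM in GFP- HCs. GFP+ pools were mostly the lower ones, 17 of 19 in ECs and 16 of 20 in HCs being under the GFP- median, but neither was called (-0.69 ± 0.25 and -0.43 ± 0.14). In MCs *Cenpa* was 14.3, 112.6 and 232 CPM in GFP+ MCs and 98, 192 and 358 CPM in GFP- MCs, and in SNS cells 100.3, 186 and 298 CPM in GFP+ SNS cells and 57.3, 189 and 281 CPM in GFP- SNS cells. The MC difference was -0.68 with all passing pools and -1.0 without the 13, and the SNS difference turned from 0.03 to -0.14 without the 13, called in neither. *Cenpf*, a large protein of the outer kinetochore, was not called at E10.5. It was 19.8, 67.5 and 173 CPM in GFP+ ECs and 21.9, 70.7 and 144.5 CPM in GFP- ECs, and 18.9, 61.1 and 163 CPM in GFP+ HCs and 21, 59.3 and 142.5 CPM in GFP- HCs. The ranges lay over each other (0.04 ± 0.23 and 0.08 ± 0.24). In MCs *Cenpf* was 1.32, 42.5 and 99.7 CPM in GFP+ MCs and 23.8, 59.4 and 151.9 CPM in GFP- MCs, and in SNS cells 33, 60.3 and 122.1 CPM in GFP+ SNS cells and 23, 60.5 and 119.7 CPM in GFP- SNS cells. Neither was called, at -0.59 with all passing pools and -0.93 without the 13 in MCs and 0.06 with all passing pools and 0.00 without the 13 in SNS cells. *Ndc80*, the partner of *Nuf2* in the microtubule-binding complex, was not called in any GFP contrast.

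Among 6 members of spindle assembly and its motors only *Tpx2* was called in a GFP contrast, and only in ECs. This 1 of 6 is a share near the 16.5% of all genes called lower there. The group medians were -0.71 in ECs, -0.23 in HCs, -0.70 in MCs and 0.26 in SNS cells (-0.85 and 0.13 in MCs and SNS cells without the 13). *Tpx2*, which brings Aurora A to the spindle and nucleates microtubules, was 0, 58.3 and 119.1 CPM in GFP+ ECs and 84.2, 110.9 and 217 CPM in GFP- ECs. In 13 of 19 GFP+ EC pools it was under the lowest GFP- pool (log2 fold change -1.05 ± 0.30, edgeR adjusted p 0.00384). HC pools had 47.6, 98.6 and 196 CPM in GFP+ HCs and 46.2, 100.8 and 214 CPM in GFP- HCs (-0.15 ± 0.17). In MCs *Tpx2* was 6.37, 79.3 and 169 CPM in GFP+ MCs and 74.9, 107.8 and 219 CPM in GFP- MCs, and in SNS cells 66.3, 122.7 and 221 CPM in GFP+ SNS cells and 45.9, 101.7 and 178 CPM in GFP- SNS cells. These ranges overlapped, with log2 fold changes of -0.65 with all passing pools and -0.77 without the 13 in MCs and 0.26 with all passing pools and 0.14 without the 13 in SNS cells. *Kif11*, the motor that pushes the poles apart, was 3.44, 19.9 and 89.3 CPM in GFP+ ECs and 25.5, 58.2 and 105.5 CPM in GFP- ECs, and 15.3, 50.02 and 139.6 CPM in GFP+ HCs and 30.1, 66.4 and 159.2 CPM in GFP- HCs. It missed the threshold in both (log2 fold change -0.83 ± 0.31, edgeR adjusted p 0.0242 in ECs and -0.50 ± 0.20 in HCs). In MCs *Kif11* was 1.76, 37.3 and 92.8 CPM in GFP+ MCs and 12.6, 57 and 124.99 CPM in GFP- MCs, and in SNS cells 9.88, 52.6 and 89.4 CPM in GFP+ SNS cells and 16.1, 35.6 and 83.6 CPM in GFP- SNS cells. GFP+ pools were lower in MCs, 15 of 20 being under the GFP- median, without a call (-0.67 with all passing pools and -0.79 without the 13). Across the group the EC values spanned -1.05 to -0.38, with *Kif2c*, *Kif4*, *Nusap1* and *Hmmr* called in no GFP contrast.

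**Figure D4:**
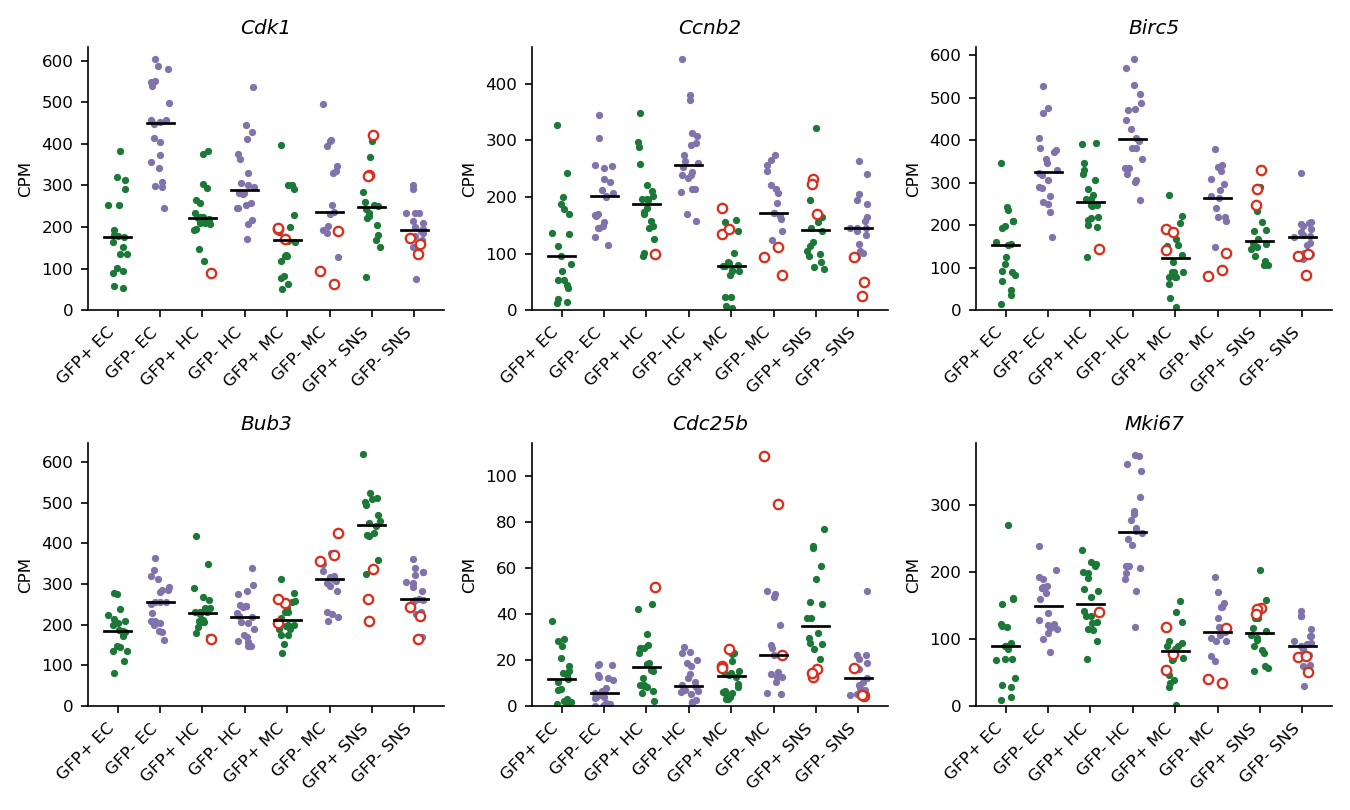
CPM of single members in each passing pool of the 8 populations, with GFP+ pools in green, GFP- pools in purple, a bar at the median of all passing pools, and red open circles for the 13 pools that went against their labels. *Bub3* is lower in GFP+ ECs and GFP+ MCs and higher in GFP+ SNS cells, where 13 of 18 GFP+ pools lie above every GFP- pool.

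Members of the midzone and of cytokinesis, 6 genes, were called in no GFP contrast, as in edgeR 0 were lower and 0 higher in any of the 4 cell types. Their medians were -0.61 in ECs, -0.20 in HCs, -0.78 in MCs (-0.95 without the 13 pools) and 0.31 in SNS cells (0.22). *Kif20a*, the motor that carries the passenger complex to the midzone, shares 29.3% of its exon bases with *Cdc23* on the other strand. It was 2.51, 10.02 and 43 CPM in GFP+ ECs and 4.43, 19.8 and 77.5 CPM in GFP- ECs, and 4.14, 19.5 and 86.9 CPM in GFP+ HCs and 4.48, 26 and 84.7 CPM in GFP- HCs. In ECs 3 GFP+ pools were under the lowest GFP- pool and 4 GFP- pools above the highest GFP+ pool, and neither contrast was called (-0.65 ± 0.34 in ECs and -0.04 ± 0.31 in HCs). In MCs *Kif20a* was 1.19, 32.1 and 77.4 CPM in GFP+ MCs and 2.45, 49.7 and 117.6 CPM in GFP- MCs, and in SNS cells 28.8, 44.1 and 72.3 CPM in GFP+ SNS cells and 15.8, 38.6 and 73.2 CPM in GFP- SNS cells. Again they overlapped (-0.86 with all passing pools and -1.04 without the 13 in MCs). *Prc1*, which bundles the microtubules of the midzone and shares 11.1% of its exon bases with *Rccd1* on the other strand, was 2.68, 49 and 145.1 CPM in GFP+ ECs and 36.5, 65.6 and 143.9 CPM in GFP- ECs, and 16.6, 61 and 142.3 CPM in GFP+ HCs and 5.42, 71.1 and 167 CPM in GFP- HCs. The highest EC pool was a GFP+ one, and the differences were within the spread (-0.39 ± 0.30 and -0.29 ± 0.26). In MCs *Prc1* was 8.56, 54.3 and 121.98 CPM in GFP+ MCs and 31.6, 73.3 and 169 CPM in GFP- MCs, and in SNS cells 16.7, 89.3 and 152.1 CPM in GFP+ SNS cells and 32.3, 71.7 and 111.6 CPM in GFP- SNS cells. GFP+ SNS pools held both the lowest and the highest values, 7 of 18 being above every GFP- pool, without a call (0.42 with all passing pools and 0.34 without the 13).

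Chromosome structure counted 7 members, with 5 called lower in ECs (*Top2a*, *Smc2*, *Smc4*, *Ncapg* and *Ncaph*), 3 in HCs (*Smc2*, *Smc4* and *Mki67*) and 1 in MCs (4 without the 13 pools). *Smc2* and *Smc4* form the core of condensin. *Smc2* was 50.5, 95.6 and 249 CPM in GFP+ ECs and 115.4, 187 and 322 CPM in GFP- ECs (log2 fold change -0.80 ± 0.16, edgeR adjusted p 4.10e-05). In HCs it was 83.1, 129.1 and 201 CPM in GFP+ HCs and 111.3, 181 and 279 CPM in GFP- HCs (log2 fold change -0.46 ± 0.11, edgeR adjusted p 0.000569). GFP+ pools were under the GFP- median in 17 of 19 and 18 of 20 cases. In MCs *Smc2* was 44.7, 111.1 and 159.1 CPM in GFP+ MCs and 77.2, 168 and 204 CPM in GFP- MCs, and in SNS cells 96.4, 165 and 244 CPM in GFP+ SNS cells and 91.6, 165 and 265 CPM in GFP- SNS cells. All 20 GFP+ MC pools were under the GFP- median, and the difference, -0.51 with all passing pools and -0.67 without the 13, was called only in the latter, while SNS cells went from 0.11 to -0.02 without a call. *Smc4* had 30.5, 105.9 and 244 CPM in GFP+ ECs and 140.2, 271 and 348 CPM in GFP- ECs (log2 fold change -1.05 ± 0.17, edgeR adjusted p 2.97e-06). In HCs it had 104.6, 191 and 311 CPM in GFP+ HCs and 176, 262 and 400.1 CPM in GFP- HCs (log2 fold change -0.46 ± 0.11, edgeR adjusted p 0.000659). Every GFP+ EC pool was under the GFP- median. In MCs *Smc4* was 71.3, 123.2 and 201 CPM in GFP+ MCs and 76.5, 195 and 345 CPM in GFP- MCs (log2 fold change -0.71 ± 0.15, edgeR adjusted p 0.00153). Without the 13, 15 of 17 GFP+ MC pools, in place of 1 of 20, were under the lowest GFP- pool, and it was called at -0.87. SNS pools had 77.9, 131.4 and 268 CPM in GFP+ SNS cells and 84, 146.2 and 238 CPM in GFP- SNS cells (0.08 with all passing pools and -0.17 without the 13, called in neither).

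*Top2a* encodes the topoisomerase that untangles sister chromatids. Its pools read 25.8, 145.4 and 385 CPM in GFP+ ECs and 122.2, 261 and 428 CPM in GFP- ECs (log2 fold change -0.88 ± 0.22, edgeR adjusted p 0.000986). In HCs they read 73.3, 230.2 and 422 CPM in GFP+ HCs and 154.5, 251 and 466 CPM in GFP- HCs (-0.24 ± 0.16, not called). In MCs *Top2a* was 29, 175 and 332 CPM in GFP+ MCs and 55.9, 257 and 466 CPM in GFP- MCs, and in SNS cells 96.8, 247 and 407 CPM in GFP+ SNS cells and 87.7, 186 and 314 CPM in GFP- SNS cells. GFP+ pools were lower in 18 of 20 MC cases relative to the GFP- median and higher in 16 of 18 SNS cases, and only the MC difference without the 13 was called (-0.77 with all passing pools and -0.93 without the 13). *Ncapd2*, a regulatory subunit of condensin I, was 19.3, 49.3 and 162 CPM in GFP+ ECs and 35.8, 73.7 and 128.4 CPM in GFP- ECs, and 41.7, 68.4 and 125.8 CPM in GFP+ HCs and 67.2, 87.3 and 127.2 CPM in GFP- HCs. It was not called in either (-0.40 ± 0.21 and -0.31 ± 0.12), although 10 of 20 GFP+ HC pools were under the lowest GFP- pool. In MCs *Ncapd2* was 9.22, 53.2 and 104.8 CPM in GFP+ MCs and 46.8, 77.6 and 105.5 CPM in GFP- MCs, and in SNS cells 61, 83.4 and 151.005 CPM in GFP+ SNS cells and 27, 72.8 and 119.4 CPM in GFP- SNS cells. Neither passed the test (-0.49 with all passing pools and -0.67 without the 13 in MCs). *Ncapg*, another condensin I subunit, which shares 13.4% of its exon bases with *Lcorl* on the other strand, was 2.14, 22.2 and 58.3 CPM in GFP+ ECs and 25.7, 43.9 and 72.6 CPM in GFP- ECs (log2 fold change -0.96 ± 0.29, edgeR adjusted p 0.00527). In HCs *Ncapg* was 12.4, 30.4 and 62.8 CPM in GFP+ HCs and 10.7, 30.1 and 69.96 CPM in GFP- HCs, where the ranges overlapped (-0.11 ± 0.21). In MCs *Ncapg* was 3.88, 22.5 and 62.1 CPM in GFP+ MCs and 21.8, 43.8 and 99.1 CPM in GFP- MCs, and in SNS cells 19.6, 43.7 and 74.1 CPM in GFP+ SNS cells and 3.73, 30.1 and 67.2 CPM in GFP- SNS cells. The MC difference was -1.01 with all passing pools and -1.19 without the 13, called only in the latter.

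*Mki67*, which coats mitotic chromosomes and is widely used as a marker of cycling cells, had 9.32, 89.1 and 270.1 CPM in GFP+ ECs and 80.9, 149.1 and 239 CPM in GFP- ECs. Although 15 of 19 GFP+ EC pools were under the GFP- median, 1 GFP+ pool was the highest of all, and it was not called (log2 fold change -0.71 ± 0.25, edgeR adjusted p 0.0160). In HCs *Mki67* had 69.7, 152.4 and 233 CPM in GFP+ HCs and 117.7, 259.9 and 374 CPM in GFP- HCs. All 20 GFP+ HC pools were under the GFP- median, the largest fall among the members called in HCs (log2 fold change -0.72 ± 0.13, edgeR adjusted p 2.43e-05). In MCs it was 1.98, 81.6 and 156.3 CPM in GFP+ MCs and 34.6, 109.99 and 193 CPM in GFP- MCs, and in SNS cells 52, 108.9 and 203 CPM in GFP+ SNS cells and 30.1, 89.6 and 142.5 CPM in GFP- SNS cells. Neither was called (-0.52 with all passing pools and -0.66 without the 13 in MCs, and 0.32 with all passing pools and 0.17 without the 13 in SNS cells).

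The members called lower overlapped in part between cell types, which is a count of calls and no test of a difference. ECs and HCs shared 6, *Birc5*, *Ccnb2*, *Cdk1*, *Mad2l1*, *Smc2* and *Smc4*, which are 33.3% of the 18 in ECs and 66.7% of the 9 in HCs, where over all genes 25.6% of those called lower in ECs and 41.3% of those in HCs were shared. ECs and MCs shared 4 with all passing pools (22.2% of 18 and 80% of 5) and 11 without the 13 (61.1% of 18 and 73.3% of 15). Over all genes ECs and MCs shared 7.91% and 57.3%, and 17.4% and 58.04% without the 13. HCs and MCs shared 2 (22.2% of 9 and 40% of 5), beside 3.43% and 15.4% over all genes, and 6 without the 13 (66.7% of 9 and 40% of 15), beside 9.19% and 20.8%. Called lower in all 3 cell types were *Mad2l1* and *Smc4*, 4.44% of the members beside 0.317% of all genes, and without the 13 also *Birc5*, *Ccnb2* and *Smc2* (11.1% beside 0.964%). In 1 or more of the 3, 22 members (48.9%) were called lower, beside 23.05% of all genes, and 24 (53.3%) without the 13, beside 24.9%.

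Whether the *Gata3*-GFP difference itself differed between cell types was tested as an interaction, the log2 fold change in ECs minus that in HCs, or in MCs minus that in SNS cells. For ECs against HCs 3 members were called lower and 0 higher, beside 13.2% and 9.27% of 17851 genes. The member median was -0.45 and that over all genes -0.08. At an unadjusted p under 0.05 edgeR had 17 lower and 0 higher, and DESeq2 called 3 lower and 0 higher. The 3 were *Bub3* (difference -0.56 ± 0.16, edgeR adjusted p 0.00456), *Cdk1* (-0.79 ± 0.23, adjusted p 0.00530) and *Ccna2* (-0.95 ± 0.29, adjusted p 0.00730) by edgeR. With no gene filter edgeR called 0 of them (12 members lower at an unadjusted p under 0.05), in 1 fit of the 8 populations *Cdk1* was not called, and with ERCC scaling 22 members were called, beside 29.4% of all genes lower. *Plk1* (-1.14 ± 0.39) and *Mad2l1* (-0.73 ± 0.25) came next and were not called. *Plk1* was called at -1.23 once the GFP+ HC pool that went against its label was left out, and then 4 members were called.

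Between MCs and SNS cells the difference was wider. Here 14 members were called lower and 0 higher, beside 5.17% and 4.49% of 17733 genes, and all 45 were below 0, with a median of -1.07 against 0.01 over all genes. Without the 13 pools 16 members were lower and 0 higher, beside 4.73% and 5.64% of 17309 genes, with a median of -1.06. In edgeR 43 members were lower and 0 higher at an unadjusted p under 0.05, and DESeq2 called 18 lower and 0 higher. *Bub3* had the smallest adjusted p (-1.16 ± 0.15, edgeR adjusted p 9.64e-09), with the GFP+ pools low in MCs and high in SNS cells. *Cdc25b* had the largest difference (-2.84 ± 0.45, edgeR adjusted p 2.53e-06), then -2.62 without the 13. *Ccna2* was at -1.52 ± 0.28 (edgeR adjusted p 4.94e-05), *Mad2l1* at -0.98 ± 0.24 and *Ncapg* at -1.44 ± 0.35. The other 9 called with all passing pools were *Plk1*, *Aurka*, *Birc5*, *Cdca8*, *Bub1b*, *Nuf2*, *Kif2c*, *Top2a* and *Smc4*, between -1.44 and -0.77. *Nuf2* was called only with the 13 pools, and *Ccnb2*, *Incenp* and *Ncapd2* only without them.

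Cell types of the same stage were compared over both fractions. In HCs relative to ECs 2 members were called lower and 15 higher, beside 24.8% and 25.5% of 17851 genes, with a median of 0.32 over the members and 0.02 over all genes. All 4 passenger complex members were higher in HCs: *Aurkb* (0.90 ± 0.18), *Incenp* (0.84 ± 0.16), *Cdca8* (0.77 ± 0.15) and *Birc5* (0.51 ± 0.13). The largest rise was that of *Hmmr*, a microtubule-binding protein of the spindle (log2 fold change 1.02 ± 0.21, edgeR adjusted p 2.15e-05). Its median was 68.8 CPM in GFP+ HCs and 65.8 CPM in GFP- HCs, and 22.1 and 45.1 CPM in the EC fractions. Lower in HCs were *Ttk*, the checkpoint kinase Mps1 (log2 fold change -0.64 ± 0.18, edgeR adjusted p 0.00159), and *Pttg1* (log2 fold change -0.35 ± 0.08, edgeR adjusted p 7.96e-05). *Pttg1* had 36.2, 71.5 and 116.4 CPM in GFP+ ECs and 53.3, 77.3 and 116.2 CPM in GFP- ECs, and 52.8, 68.8 and 92.9 CPM in GFP+ HCs and 27.1, 55.3 and 94.2 CPM in GFP- HCs. With ERCC scaling the *Pttg1* difference was 0.06 and not called. Relative to MCs, SNS cells had 0 members lower and 3 higher, beside 12% and 11.4% of 17733 genes, with medians of 0.13 and 0.00. The 3 were *Cdc25c* (log2 fold change 0.95 ± 0.24, edgeR adjusted p 0.00109), *Bub3* (log2 fold change 0.40 ± 0.07, edgeR adjusted p 1.39e-05) and *Smc2* (log2 fold change 0.34 ± 0.10, edgeR adjusted p 0.00327). With the 13 pools left out, 0 were lower and 11 higher, beside 19.7% and 20.5% of 17309 genes. These 11 of 45 members are a share near that of all genes, and the 3 of 45 with all passing pools a smaller share than the 11.4% of all genes. For SNS cells against MCs edgeR had 0 lower and 11 higher at an unadjusted p under 0.05 (0 and 13 without the 13). DESeq2 called 0 lower and 3 higher.

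Members varied together over the pools of a population. Over the 19 GFP+ EC pools the median Pearson correlation between 2 members was 0.67, and over the 17 GFP+ MC pools that went with their label it was 0.73. In the other populations the median lay between 0.39 (GFP+ HCs) and 0.52 (both SNS fractions). Pairs of all genes in the members' range had a median near 0.00 in each. That range ran from the lowest to the highest mean CPM of a member, in GFP+ ECs 12.9 to 186 CPM, and genes were not matched by level within it. All points of a correlation share a sort gate and a normalization, and correlations were computed on log2 CPM within 1 population. The spread went the same way. The median coefficient of variation of a member was 68.7% in GFP+ ECs and 61.1% in GFP+ MCs. For all genes in the members' range it was 39.03% and 31.8%. In GFP- ECs the median of a member was 36.1% (33.2% for genes in that range), and in GFP- MCs 36.2% (29.6%). *Ccna2* followed the others most closely in GFP+ ECs (median correlation 0.81), and *Ube2c*, which encodes the ubiquitin-conjugating enzyme of the APC/C, did so in GFP+ MCs beside *Ccna2* (both 0.84). *Pttg1* followed least in 6 of 8 populations, with a median correlation to the other members between -0.55 (16 GFP- SNS pools) and 0.33 (GFP+ ECs), and a coefficient of variation of only 16.4% in GFP+ HCs. Within GFP+ ECs the members' sum ran against *Gata3* over 19 pools (Pearson -0.40, Spearman -0.48, and -0.31 without the 2 pools farthest out). In the other 7 populations the Pearson correlation with *Gata3* lay between -0.19 (GFP+ SNS cells) and 0.53 (GFP- SNS cells, 0.21 without the 2 farthest). In GFP+ ECs the sum had little relation to the log2 ratio of gene to ERCC counts (-0.12 and -0.11, then 0.05) or to depth (0.13 and 0.00, then 0.01).

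Other genes of the same pathways, 93 named in 7 lists of which 90 were found and tested, moved less uniformly. In ECs 27 of the 90 were called lower and 4 higher, beside 16.5% and 19.5% of all genes, and in HCs 14 and 1, beside 9.53% and 17.1%. In MCs 6 were lower, beside 2.15% of all genes (15 without the 13 pools, beside 4.90%). In SNS cells 4 were higher, beside 2.01% (4 without the 13, beside 4.94%). Kinetochore genes outside the members led in ECs, with 10 of 18 lower and a median of -0.96, among them *Spc24* (-1.54), *Cenpw* (-1.30) and *Cenpk* (-1.07). The kinase subunit *Cks1b* was at -1.05 in ECs, and the MuvB partner *Mybl2* at -1.45. The 14 APC/C genes had a median of -0.04 in ECs, and 2 were called higher (*Anapc4* and *Anapc1*, both 0.34), which is 14.3% beside 19.5% of all genes. Higher in GFP+ ECs were also *Numa1*, which anchors spindle poles (0.71), and the cohesin loader *Nipbl* (0.64). In HCs the repressor *E2f8* (-1.23) and the spindle motor *Kif15* (-0.82) were lower and the kinetochore gene *Zwint* higher (0.75). Called higher in GFP+ SNS cells were *Gtse1* (0.82), *Dsn1* (0.71), *Spag5* (0.70, not called without the 13) and *Pmf1* (0.45), of which *Pmf1* was lower in MCs (-0.64).

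Scaling by the ERCC RNAs, which follows the RNA content of a pool, moved all genes together. In ECs the median over all genes went from 0.10 to -0.60, a shift of -0.70, and the members' median from -0.71 to -1.49. A scaling factor moves all genes of a pool alike, so values relative to all genes can change little and are no test of robustness. For the members they were -0.81 with TMM and -0.90 with ERCC scaling in ECs. For HCs these relative values were -0.34 and -0.35, for MCs -0.71 and -0.64, and for SNS cells 0.31 and 0.29, where the median over all genes moved from 0.00 to 0.35. The mean log2 ratio of gene to ERCC counts was 5.95 in GFP+ ECs and 6.66 in GFP- ECs, and 7.39 and 7.10 in GFP+ and GFP- SNS cells. It differed little between the fractions of HCs (6.77 and 6.80) and MCs (6.82 and 6.77). The part of RNA content in the members' counts was not tested.

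**Figure D5:**
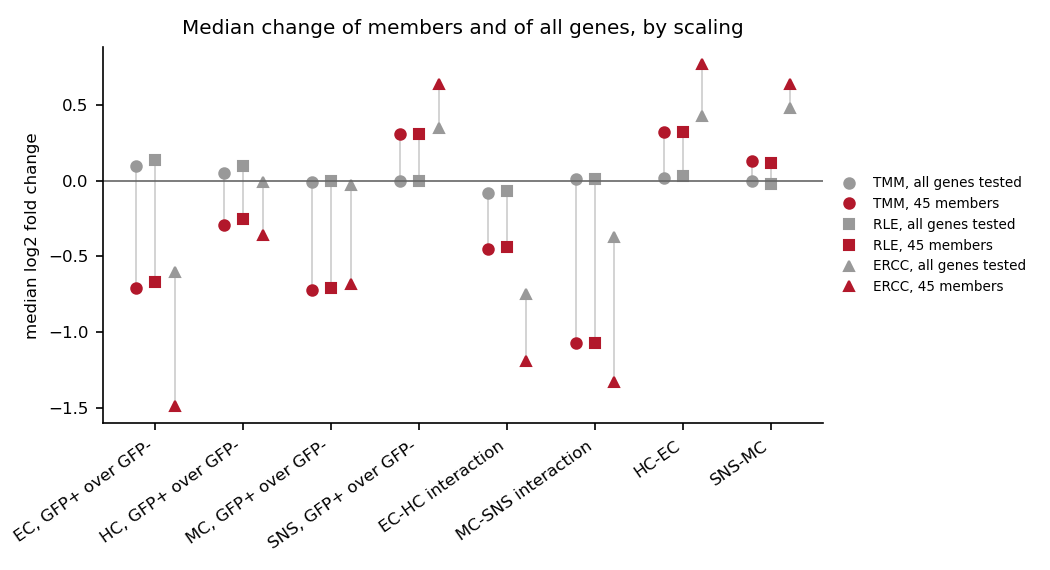
Median log2 fold change over all genes tested (grey) and over the 45 members (red) in each comparison, with circles for TMM, squares for RLE and triangles for ERCC scaling. Members and all genes shift together, as 1 factor scales each pool. The distance between them went from -0.81 to -0.90 in ECs, from -0.71 to -0.64 in MCs and from -1.08 to -0.95 in the interaction of MCs and SNS cells.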

How the data were processed

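The deposited counts, which the authors made with HTSeq (0.5.3p3) and neither normalized nor filtered, were used, 1 column for each pool of 20 cells. For the alignment the paper names STAR with Ensembl release 81 and the submitters' notes name GSNAP 2015-09-29 with mm10, and the 2 were not reconciled. The strand setting and the overlap mode are not given in the sources used here. Of all reads in a passing pool a median of 16.3% were ambiguous between genes, 11.7% on no gene and 23.0% not aligned. The study's limits for a pool were applied: more than 500000 counts in all (ERCC RNAs included), more than 20% of its reads mapped to genes, and less than 20% each mitochondrial or from ERCC RNAs. The study's further limit of 8000 high coverage genes was not applied, and each passing pool had at least 9888 genes with 10 counts.

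A gene entered a fit if 5 or more of its pools had 10 counts or more. The test was the robust quasi-likelihood F test of edgeR 4.0.16 (R 4.3.3) with TMM factors, and p was adjusted by Benjamini-Hochberg over all genes tested. The 4 populations of a stage were fitted together for the interactions and for cell types. Standard errors were taken from the F statistics. CPM used TMM over the 153 passing pools. Tables and plots were made in Python with pandas 2.3.3, matplotlib 3.10.9, numpy 2.4.6 and scipy 1.17.1.

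The alternatives were DESeq2 1.42.0 (Wald test), scanpy 1.11.5 (t-test on values scaled with scran 1.30.0), RLE and ERCC size factors, all pools, no gene filter, 10 counts in 20 pools, and 1 fit of the 8 populations. Leaving out the 13 pools that went against their labels was chosen after seeing the data. The E10.5 pools come from 3 to 5 biological replicates, a number not given for E11.5, and the labels tie no pool to its replicate, so p measures the spread between pools, not between embryos.

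Values in every population were given for 17 members fixed in a list, for the 3 called members with the largest rise and fall in each GFP contrast (among those where 75% of pools in the higher fraction had 10 counts), and for up to 5 members with the smallest adjusted p in each interaction. The members and lists were chosen with earlier results of these data known.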

Additional observations from a re-analysis of the deposited data

Results flagged for a closer look

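Whether the *Gata3*-GFP difference was the same in both cell types of a stage was tested as an interaction in 1 fit with edgeR. In ECs relative to HCs the interaction was -0.79 for *Cdk1*, -0.95 for *Ccna2* and -0.56 for *Bub3*. These 3 of 45 members called lower are a smaller share than the 13.2% of all genes. With no gene filter edgeR called 0 of these 3 (12 members lower at an unadjusted p under 0.05), and DESeq2 called 3. In MCs relative to SNS cells 5.17% of all genes were called lower (4.73% without the 13 pools). There the interaction was -2.84 for *Cdc25b*, -1.52 for *Ccna2*, -1.20 for *Plk1* and -1.44 for *Aurka*. The same log2 difference was -1.09 for *Birc5*, -1.13 for *Cdca8*, -1.20 for *Bub1b*, -1.16 for *Bub3* and -0.98 for *Mad2l1*. It was -1.20 for *Nuf2* (not called without the 13 pools), -1.42 for *Kif2c*, -1.09 for *Top2a*, -0.77 for *Smc4* and -1.44 for *Ncapg*.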

How the results depend on the processing

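No paired analysis was possible because the columns of the count table carry no pool or replicate number, so a fit with replicates as blocks was not run. The 14 counts of members and 91 named changes were recomputed under 9 alternatives, scanpy for the GFP contrasts only. Of 120 recomputed counts 17 moved by over 1.5 times, and of the named changes 13 reversed, 39 were stronger, 19 weaker and 732 the same. The cause was not tested.

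With ERCC scaling the members called lower were 42 in ECs (18 with TMM), 5 in HCs (9) and 1 in MCs (5), and 7 were higher in SNS cells (3). The interactions then had 22 (ECs against HCs, 3 with TMM) and 28 (MCs against SNS cells, 14). HCs against ECs had 0 lower (2; edgeR with 0 lower at an unadjusted p under 0.05, and 2 by DESeq2) and 33 higher (15), and SNS cells against MCs had 35 higher (3). Of all genes ERCC scaling had 37.7% lower in ECs, 5.85% in HCs and 0.655% in MCs, 5.23% higher in SNS cells, 29.4% and 8.02% lower in the interactions, 14.1% lower and 41.5% higher in HCs against ECs, and 43% higher in SNS cells against MCs. ERCC scaling shifted the median of all genes by -0.70 in ECs, -0.67 and -0.38 in the interactions, 0.35 in SNS cells, 0.41 in HCs against ECs and 0.48 in SNS cells against MCs. The share of called genes that were higher went from 54.1% to 14.3% in ECs, 50.7% to 72.4% in MCs, 52.1% to 83.3% in SNS cells, 41.2% to 9.01% and 46.5% to 23.7% in the interactions, 50.7% to 74.7% in HCs against ECs and 48.5% to 89.2% in SNS cells against MCs.

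In 1 fit of the 8 populations 4 members were lower in HCs (9) and 12 in MCs (5). By scanpy 15 were lower in HCs, and by DESeq2 1 was higher in HCs (0) and 11 lower in MCs. With no gene filter edgeR called 0 in the interaction of ECs and HCs (3; 12 lower at an unadjusted p under 0.05, and DESeq2 called 3). Shares of all genes are not given for these fits and tests. Without the 13 pools 15 were lower in MCs (5) and 11 higher in SNS cells against MCs (3).

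*Cenpf* in ECs went from 0.04 to -0.67 with ERCC scaling and -0.09 by scanpy, and in HCs from 0.08 to -0.11 by scanpy. *Ccnb1* in HCs went from 0.05 to -0.02 with ERCC scaling and -0.12 by scanpy. *Cdc20* in HCs went from 0.01 to -0.03 with ERCC scaling, -0.02 with no gene filter and -0.23 by scanpy. In SNS cells without the 13 pools *Birc5* went from 0.15 to -0.11, *Cenpa* from 0.03 to -0.14, *Cenpf* from 0.06 to 0.00, *Smc2* from 0.11 to -0.02 and *Smc4* from 0.08 to -0.17. None of these was called before or after. *Pttg1* in HCs against ECs went from -0.35, called, to 0.06 with ERCC scaling, not called.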

Other observations

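The 7 pools outside the study's limits held 48731 to 430042 counts on genes. Of their gene counts 0.245% to 0.571% were on the 45 members, where the passing pools had a lowest, median and highest share of 0.0750%, 0.428% and 0.782%. Between 3 and 28 members reached 10 counts in these pools.

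The count table also holds 3 pseudogenes of members, *Ccnb1-ps*, *Ccnb2-ps* and *Kif4-ps*.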
